A study of Rattus norvegicus with 8 samples.

Results

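Cultures treated to be silent at the moment of harvest (HT) were compared with cultures that had been silenced earlier and then washed (TH). The labels give no measure of firing, so a return of firing in TH was not tested. The comparison takes 4 of the 8 libraries of the series, 2 of HT and 2 of TH, picked by the treatment in their labels and not by any measured value. It covers the 11372 of 16871 genes (67.4%) whose counts were high enough to test. HT cultures received vehicle (water) for 24 h from day 14 in vitro and 1 µM tetrodotoxin (TTX) for the last 4 h on day 17. TH cultures received TTX in the first 24 h and vehicle in the last 4 h, and every culture had a washout of 48 h in between. The remaining libraries serve as references: HH had vehicle both times and TT had TTX both times, with 2 libraries each. All cultures were mixed cortical and hippocampal cells from newborn Sprague Dawley rat pups, and all were given 2 mM bromouridine (BrU) for the last 30 min before harvest. Library titles name hippocampal neurons only, and the labels do not say whether the replicates were separate cultures or animals, so every p-value measures only the spread between these libraries.

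TTX plugs voltage-gated sodium channels, and a neuron without working sodium channels cannot fire action potentials. BrU is built into RNA while it is being made, so sequencing of BrU-containing RNA reads out recent transcription and not the stock of older messages. Neurons kept silent for long are known to strengthen their synapses, a slow adjustment called homeostatic scaling, while genes that depend on firing, such as Fos and Arc, are turned down. HT against TH changes the present and the past treatment together, so a difference may belong to silence now, to silence earlier or to both. Differences are given as log2 HT minus TH with a standard error (SE), with n = 2 libraries per group, and levels are given in CPM, the reads of a gene scaled to a fixed total per library.

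Total counts ran from 3489176 to 4959887 over the 8 libraries. The 2 groups were not tight clusters. HT replicate 2 and TH replicate 2 were the most alike of the 6 pairs that the 4 libraries make, with 155 genes more than 2-fold apart, against 281 between the HT replicates and 180 between the TH replicates. HH replicate 1 stood apart from the other libraries in genes that follow firing, and HT replicate 1 to a lesser degree. Some results that touch them are therefore also given without them. List medians and gene values set against HH are given with both HH libraries only. Eif2s3y, a Y-linked gene named after its values were seen, had 191 and 249 counts in replicate 2 of HT and of TH and 2 and 1 in replicate 1, so each group held 1 library with it and 1 almost without. HH had 0 counts in replicate 1 and 215 in replicate 2, and TT had 3 and 0. Neuronal and glial markers were both present: Slc17a7, the vesicular glutamate transporter of excitatory neurons, lay at 88.8 to 119 CPM in the 4 libraries, and Gfap, an astrocyte filament gene, at 349 to 507 CPM. Of 15 microglial markers 7 were high enough to test, and of 15 vascular and fibroblast markers 5.

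No gene passed the adjusted threshold of 0.05 between HT and TH. The smallest adjusted p was 1.00 in edgeR's quasi-likelihood test with Benjamini-Hochberg adjustment, and DESeq2 and limma-voom also called 0 genes. An unadjusted p under 0.05 was reached by 342 genes (3.01%) in edgeR, 120 in DESeq2 and 359 in limma-voom, where evenly spread p-values would give 568.6. HT was the higher group in 177 of the 342 (1.56% of all tested genes) and the lower in 165 (1.45%). The middle 50% of all log2 differences lay between -0.12 and 0.14, and 94 genes differed by more than 2-fold, 41 of them higher in HT. In 30.6% of all tested genes the 2 HT values did not overlap the 2 TH values, 15.5% with HT higher and 15.1% with HT lower. On simulated counts of the same genes the test recovered 68.6% of 2-fold and 94.3% of 4-fold changes, with 8.72% of calls false. Each gene was drawn on its own there, without shifts shared by many genes of 1 library. These shares may therefore not hold for the real libraries. The groups and genes below are described by their values, and none of them passed the test.

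Genes of cell division stood higher in HT. Among 33 tested genes of dividing cells, which copy DNA, build the mitotic spindle and split the cell, 29 had a log2 difference above 0, as did 50.9% of all tested genes, and the median was 0.48, against 0.0046 over all tested genes. HT lay above TH without overlap in 22 of them and below in 2, together 72.7% of the list beside 30.6% of all genes. An unadjusted p under 0.05 was reached by 13 of the 33, all with HT higher, beside 1.56% of all tested genes. This list, like the others, was chosen with earlier results of these data known, so its shares are description and not a test. In a culture of mixed cells, fewer cells of a type and less RNA per cell cannot be told apart.

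The letters around the starts of the listed genes were also searched. The shares below follow from the choice of list and do not depend on any HT or TH value. Cell-cycle promoters are known for the CHR element, TTTGAA, and for the CCAAT box. Both were searched on both strands, as TTTGAA or TTCAAA and as CCAAT or ATTGG, from 250 bases before to 50 after the first listed start of each gene in RefSeq (build GRCr8). TTTGAA occurred in 17 of the 27 list members with a promoter entry (63.0%) and in 11.4% of 8627 tested genes with one. CCAAT occurred in 21 of the 27 (77.8%) and in 37.6% of the tested genes. The E2F motif, spelled TTTCGCGC or TTTGGCGC on either strand, occurred in 6 of the 27 (22.2%) and in 1.45% of the tested genes. The 150 bases before the start are printed 5′ to 3′ on the gene's strand for 6 of the 13 genes of unadjusted p under 0.05, the 6 of smallest p that have an entry, with TTTGAA and CCAAT matches in capitals. Smc4 lies at chr2:155550112-155550261 (plus strand), Kif20b at chr1:241840866-241841015 (plus), Cenpf at chr13:103760887-103761036 (minus), Ect2 at chr2:111966627-111966776 (minus), Kif15 at chr8:131479254-131479403 (plus) and Cdk1 at chr20:19265143-19265292 (plus).
Smc4: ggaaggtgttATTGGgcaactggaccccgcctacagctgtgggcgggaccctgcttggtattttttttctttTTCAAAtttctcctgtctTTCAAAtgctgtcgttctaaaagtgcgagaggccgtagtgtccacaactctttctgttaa
Kif20b: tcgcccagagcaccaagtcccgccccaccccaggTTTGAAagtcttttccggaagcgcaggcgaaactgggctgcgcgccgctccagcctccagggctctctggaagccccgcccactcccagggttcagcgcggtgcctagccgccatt
Cenpf: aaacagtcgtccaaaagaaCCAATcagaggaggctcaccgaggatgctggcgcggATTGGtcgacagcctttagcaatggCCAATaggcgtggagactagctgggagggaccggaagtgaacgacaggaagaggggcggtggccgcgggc
Ect2: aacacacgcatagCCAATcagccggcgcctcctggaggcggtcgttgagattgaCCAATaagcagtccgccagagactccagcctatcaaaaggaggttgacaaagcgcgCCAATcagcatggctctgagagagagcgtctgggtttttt
Kif15: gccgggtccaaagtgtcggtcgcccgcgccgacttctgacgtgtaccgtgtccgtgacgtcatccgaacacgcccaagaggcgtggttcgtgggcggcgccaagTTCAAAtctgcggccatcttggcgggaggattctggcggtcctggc
Cdk1: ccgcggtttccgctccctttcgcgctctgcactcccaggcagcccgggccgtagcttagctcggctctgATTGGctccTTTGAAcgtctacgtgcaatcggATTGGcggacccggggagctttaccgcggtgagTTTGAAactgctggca
Within these stretches Smc4 and Cdk1 hold 2 TTTGAA matches each, and Kif20b and Kif15 hold 1 each. Cenpf, Ect2 and Cdk1 hold CCAAT more than once. Outside the printed stretch, a TTTGAA match begins 155 bases before the start in Ect2 and 249 bases before it in Kif15. A match is a string of letters and not evidence that a factor binds there.

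The cell-division genes nearest to the threshold build chromosomes and the spindle. Smc4, a core subunit of the condensin complex that compacts chromosomes, stood at 47.9 and 57.3 CPM in HT and at 33.7 and 33.8 CPM in TH. The lower HT value lay well clear of both TH values (log2 difference 0.64, SE 0.16). HH libraries were at 36.1 and 30.8 CPM, like TH, and TT libraries at 57.8 and 49.8 CPM, like HT. Kif20b, a kinesin motor of cytokinesis, was at 26.4 and 34.8 CPM in HT and at 15.7 and 20.0 CPM in TH (0.76, SE 0.20), again without overlap. Tpx2, which helps to assemble the spindle, was at 32.6 and 39.3 CPM in HT and at 23.2 and 22.9 CPM in TH (0.64, SE 0.18). Cenpf, a kinetochore protein, was at 31.8 and 36.8 CPM in HT and at 17.7 and 24.7 CPM in TH (0.68, SE 0.19). In these 3 genes, too, both HT libraries stood above both TH libraries. These genes were named for their small p, so the lack of overlap follows from the choice and adds nothing to the list's counts. Also named for a small p or a large difference, and not on the list, were 2 spindle and kinetochore genes and 1 other. Knstrn was at 11.4 and 17.1 CPM in HT against 5.25 and 7.89 CPM in TH (1.08, SE 0.30). Nuf2 was at 14.5 and 21.6 CPM against 9.67 and 10.3 CPM (0.84, SE 0.24). Prr11, a gene expressed with mitosis, was at 15.0 and 14.0 CPM against 5.52 and 9.11 CPM (0.96, SE 0.27).

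Further members were read for the step of the cycle they serve, and were named after their values were seen. Cdk1, the kinase that drives entry into mitosis, was at 19.4 and 27.5 CPM in HT and at 13.3 and 15.2 CPM in TH. Mki67, the usual marker of cycling cells, was at 30.5 and 40.4 CPM in HT and at 17.7 and 28.1 CPM in TH. Top2a, which untangles replicated DNA, was at 28.7 and 44.6 CPM in HT and at 24.0 and 25.1 CPM in TH. Each of the 3 had both HT libraries on top. The members below 0 were Mcm6 and Mcm7 of the replicative helicase, the sliding clamp Pcna and the cyclin Ccnb2. Ccnb2 differed most among them, at 0.776 and 2.25 CPM in HT and 2.76 and 2.83 CPM in TH (log2 difference -0.90, SE 0.56), a level of few counts. The other helicase genes spread widely, with log2 differences of 0.95 (SE 0.61) for Mcm3, 0.34 for Mcm4, 0.19 for Mcm5 and 0.10 for Mcm2. The mitotic regulators Ccnb1 and Aurkb were at 0.10 and 0.14, so the members did not stand equally high.

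**Figure D1:**
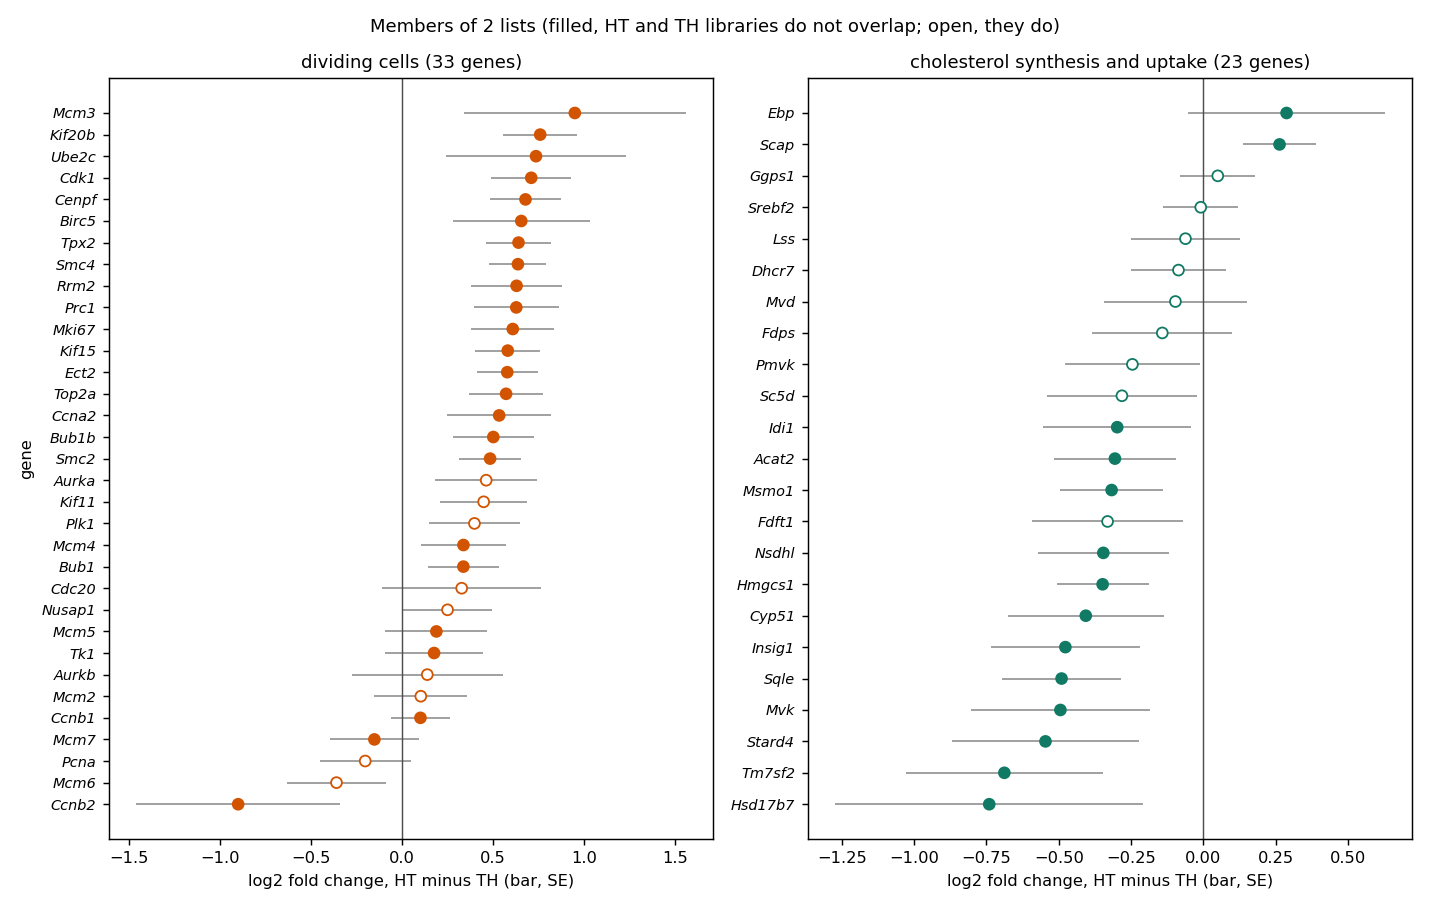
Log2 difference HT minus TH (x axis, bar: SE from the edgeR fit, n = 2 libraries per group) of the 33 tested members of the dividing-cell list (left) and 23 of the 26 of the cholesterol list (right), with filled points where the HT and TH libraries do not overlap. Of 33 dividing-cell genes 29 lie above 0, and of the 23 cholesterol genes drawn 20 lie below 0.

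Averaged over its members, the dividing-cell list separated the 8 libraries by the treatment in the last 4 h. List level, the mean log2 CPM of the members with each gene centred on its mean over the 8 libraries, was 0.11 and 0.35 in HT and -0.20 and -0.079 in TH. It was 0.22 and 0.33 in TT and -0.39 and -0.34 in HH. All 4 libraries harvested under TTX lay above all 4 harvested without it, and TH lay between HH and HT. Against HH, the median log2 difference of the members was 0.71 in HT and 0.20 in TH; these share the HH libraries and are given side by side only. The median for HT against TH ran from 0.30 without HT replicate 2 to 0.66 without HT replicate 1, so its size depended on which HT library was used and its sign did not.

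Other single genes of small p were higher in HT, and none passed the adjusted threshold. Ets1, a transcription factor, was at 58.7 and 60.6 CPM in HT and 35.9 and 40.3 CPM in TH, the smallest p on this side (log2 difference 0.64, SE 0.14, unadjusted p = 0.00082). Fgfr1, a receptor for fibroblast growth factors, was at 119 and 125 CPM in HT and 84.0 and 91.7 CPM in TH (0.48, SE 0.12). Nes, the intermediate filament nestin of neural progenitors, was at 74.0 and 115 CPM in HT and 53.9 and 44.9 CPM in TH (0.94, SE 0.24). None of these 3 overlapped between the groups. Leaving out 1 library gave Nes values from 0.59 (without HT replicate 2) to 1.23 (without HT replicate 1), none of them past the adjusted threshold. Without HH replicate 1 and HT replicate 1 together, a choice made after seeing the data, Nes was the 1 gene called, with a log2 difference of 1.23 and an adjusted p of 0.0350 in edgeR's quasi-likelihood test with Benjamini-Hochberg adjustment. That call rests on 1 HT library, the one with the higher Nes value, which is assumed to vary like the groups that keep 2 libraries. Tagln, an actin-binding gene of contractile cells, was at 34.4 and 67.7 CPM in HT and 20.7 and 19.0 CPM in TH (1.36, SE 0.46); its HT values were almost 2-fold apart.

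The oligodendrocyte lineage gave a mixed picture. Of 16 tested markers 11 lay above 0, beside 50.9% of all tested genes, with a median of 0.13, and 2 had an unadjusted p under 0.05 with HT higher, beside 1.56%. The median was 0.065 without TH replicate 1, 0.075 without HT replicate 1 and 0.30 without TH replicate 2. Cspg4, the proteoglycan that marks oligodendrocyte precursors, was at 114 and 120 CPM in HT and 85.9 and 93.9 CPM in TH (log2 difference 0.38, SE 0.12). Olig1, a transcription factor of the lineage, was at 46.8 and 50.0 CPM in HT and 37.8 and 34.0 CPM in TH (0.43, SE 0.17). Pdgfra, the growth factor receptor of the precursors, was at 197 and 230 CPM against 152 and 190 CPM (0.32, SE 0.15), without overlap by a narrow margin. Mbp, a myelin protein of mature cells, stood the other way, at 85.9 and 107 CPM in HT and 133 and 129 CPM in TH (-0.44, SE 0.29). The level of the lineage list (the mean over its members) was 0.11 and 0.046 in HT and -0.14 and 0.080 in TH, which overlap, while the HH libraries lay at -0.57 and -0.46. Astrocyte markers, 16 tested, had a median of 0.093, or 0.0030 without TH replicate 2, with 12 above 0 and a level of 0.10 and 0.013 in HT and 0.012 and -0.092 in TH. The part of these cell types in the difference of the dividing-cell genes was not tested.

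**Figure D2:**
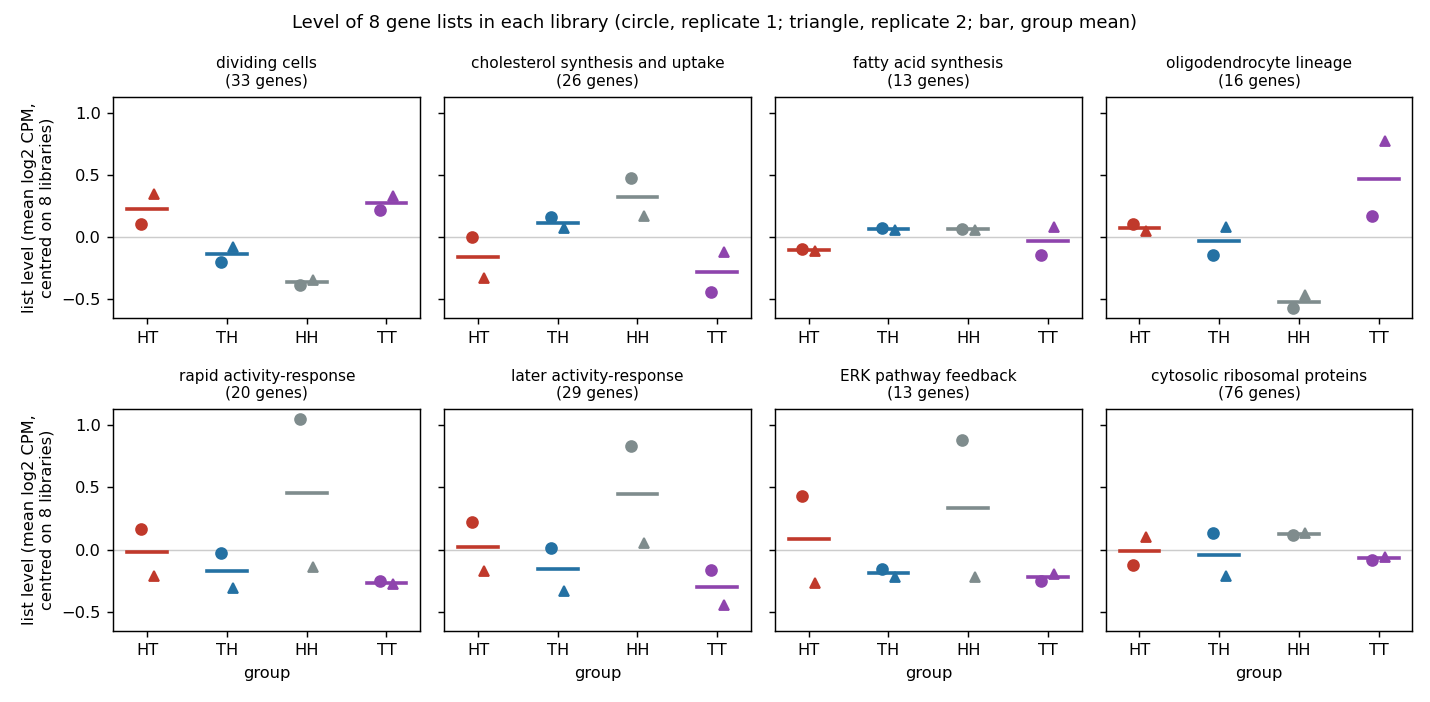
Level of 8 gene lists (y axis: mean log2 CPM of the members, each gene centred on its mean over the 8 libraries) in each library by group, with circles for replicate 1, triangles for replicate 2 and bars for group means. In the dividing-cell panel both HT and both TT libraries lie above both TH and both HH libraries; in the activity panels HH replicate 1 and HT replicate 1 lie highest.

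Genes of cholesterol supply stood lower in HT. The list covers enzymes from acetyl-CoA to cholesterol and the proteins that control them. Of 26 tested members 23 lay below 0, with a median of -0.30. HT lay below TH without overlap in 13 and above in 2, together 57.7% beside 30.6% of all genes. An unadjusted p under 0.05 was reached by 2, both with HT lower, beside 1.45% of all tested genes.

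Sqle, a rate-limiting oxygenase of sterol synthesis, was at 40.1 and 31.7 CPM in HT and 49.2 and 51.8 CPM in TH (log2 difference -0.49, SE 0.21). Hmgcs1, which makes the precursor of mevalonate, was at 152 and 123 CPM in HT and 189 and 161 CPM in TH (-0.35, SE 0.16). HT and TH did not overlap in either gene. Scap, which escorts the sterol-regulated transcription factors, was 1 of the 2 members higher without overlap, at 78.9 and 70.5 CPM in HT and 64.1 and 60.5 CPM in TH (0.26, SE 0.12). Insig1, which retains those factors in the endoplasmic reticulum, and Msmo1, a sterol demethylase, were named after their values were seen: Insig1 was at 40.9 and 30.9 CPM in HT and 52.8 and 47.6 CPM in TH, and Msmo1 at 50.4 and 43.5 CPM against 57.2 and 59.9 CPM.

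Sterol-responsive promoters are known for the sterol regulatory element (SRE), searched in 1 spelling on both strands, and for the CCAAT box, which binds a partner factor. CCAAT occurred in 15 of the 19 list members with a promoter entry (78.9%) and in 37.6% of the tested genes with one. The SRE spelling occurred in 0 of the 19 and in 0.104% of the tested genes, which says only that this spelling is not in these windows. TTTGAA occurred in 2 of the 19 (10.5%), beside 11.4% of the tested genes. The 150 bases before the start are shown for Hmgcs1 at chr2:53382154-53382303 (plus strand) and Msmo1 at chr16:29746963-29747112 (plus), 2 members with a match in that stretch, with CCAAT or ATTGG in capitals, again from RefSeq on GRCr8.
Hmgcs1: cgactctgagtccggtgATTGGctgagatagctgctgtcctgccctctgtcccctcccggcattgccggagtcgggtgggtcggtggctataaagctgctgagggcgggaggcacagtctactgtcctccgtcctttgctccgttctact
Msmo1: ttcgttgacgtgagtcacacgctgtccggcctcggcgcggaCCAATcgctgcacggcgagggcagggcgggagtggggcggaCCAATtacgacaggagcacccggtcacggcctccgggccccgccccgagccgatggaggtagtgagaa
Within the printed stretch Hmgcs1 has 1 match, 133 bases before the start, and Msmo1 has 2, the nearer at 68 bases. Further out, Hmgcs1 has a match at 188 bases and Msmo1 at 173 bases before the start. Insig1 has none within 150 bases and 1 at 193 bases before the start.

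Library by library, the cholesterol list lay at 0.0022 and -0.33 in HT and at 0.16 and 0.075 in TH, so the groups did not overlap but the HT replicates were far apart. HT replicate 1 was above HT replicate 2 in 25 of the 26 members. HH libraries lay at 0.48 and 0.17 and TT libraries at -0.45 and -0.12. The median log2 difference of the members was -0.51 for HT against HH and -0.22 for TH against HH, which share their HH libraries. The HT against TH median ran from -0.49 without HT replicate 1 to -0.17 when 1 other library was left out, and stayed below 0.

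Fatty acid synthesis, which the same family of factors controls, lay on the same side. Of 13 tested genes 10 were below 0, with a median of -0.092, and 7 were lower in HT without overlap (15.1% of all tested genes were). The median ran from -0.20 without TH replicate 1 to -0.092 without HH replicate 1. Acss2, which makes acetyl-CoA from acetate, was at 33.1 and 34.0 CPM in HT and 41.4 and 45.5 CPM in TH (log2 difference -0.38, SE 0.14). Fads2, a fatty acid desaturase, was at 205 and 206 CPM in HT and 268 and 237 CPM in TH (-0.30, SE 0.13). Scd1, another desaturase, was at 27.9 and 29.5 CPM in HT and 49.2 and 44.7 CPM in TH (-0.71, SE 0.31). These were the 3 of 13 members with an unadjusted p under 0.05 and HT lower, beside 1.45% of all tested genes. Srebf1, which encodes a lipid-synthesis transcription factor and was counted with the targets of the oxysterol receptor LXR, stood on the opposite side at 286 and 345 CPM in HT and 260 and 237 CPM in TH (0.34, SE 0.18). The 11 tested LXR targets had a median of 0.084, which ran from 0.043 without HT replicate 2 to 0.20 without TH replicate 1. HT lay above TH without overlap in 5 of them and below in 2, together 63.6% beside 30.6% of all tested genes.

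**Figure D3:**
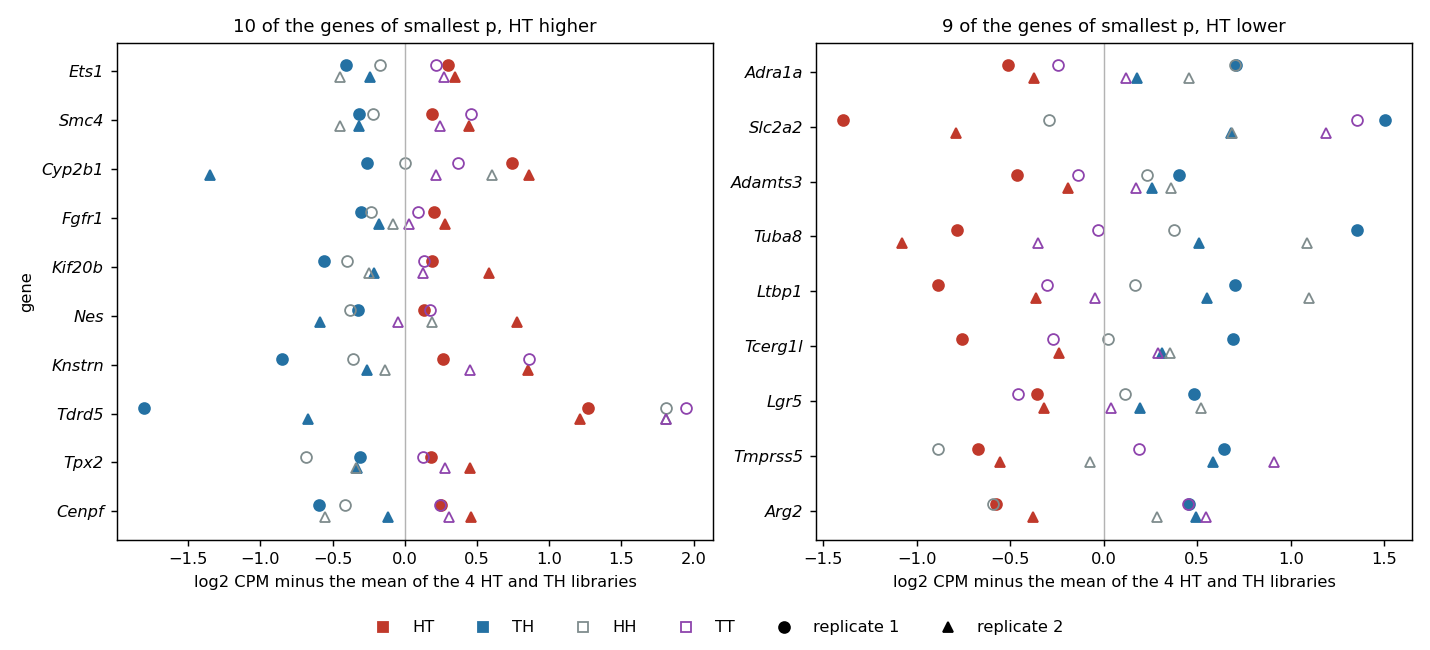
The 10 genes of smallest p with HT higher and 9 of the 10 with HT lower (x axis: log2 CPM minus the mean of the 4 HT and TH libraries), filled for HT and TH and open for HH and TT, circles for replicate 1 and triangles for replicate 2. HT and TH do not overlap in any of the 19 genes, which were picked by their p; Smc4 and Ets1 have TT near HT, while Slc2a2 and Tmprss5 have TT near TH.

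Among single genes lower in HT, the smallest p of the whole comparison belonged to Adra1a, an alpha-1 adrenergic receptor. It was at 36.7 and 40.4 CPM in HT and 85.4 and 59.1 CPM in TH (log2 difference -0.90, SE 0.20, unadjusted p = 0.00076). HH libraries were at 85.1 and 71.7 CPM and TT libraries at 44.1 and 56.8 CPM, so the 4 libraries under TTX were the lowest. Adamts3, a procollagen-cleaving protease, was at 123 and 148 CPM in HT and 223 and 202 CPM in TH (-0.65, SE 0.15). Ltbp1, which binds latent transforming growth factor beta in the matrix, was at 11.1 and 16.0 CPM in HT and 33.4 and 30.2 CPM in TH (-1.23, SE 0.30). Both genes had their 4 lowest values in the libraries under TTX. Lgr5, a receptor for R-spondins, was at 82.5 and 84.5 CPM in HT and 147 and 121 CPM in TH (-0.68, SE 0.19). Tcerg1l was at 227 and 326 CPM in HT and 621 and 478 CPM in TH (-0.99, SE 0.24).

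Less abundant genes of the same side include a peptide receptor and a cortical transcription factor. Vipr2, a receptor for vasoactive intestinal peptide, was at 6.99 and 3.09 CPM in HT and 22.9 and 10.5 CPM in TH (log2 difference -1.68, SE 0.48), with both pairs of replicates over 2-fold apart. Tuba8, an alpha-tubulin, was at 2.07 and 1.68 CPM in HT and 9.12 and 5.06 CPM in TH (-1.86, SE 0.46). Fezf2, which specifies deep-layer projection neurons, was at 1.81 and 1.68 CPM in HT and 4.14 and 4.65 CPM in TH (-1.32, SE 0.44). In the 3 genes HT lay below TH without overlap, at levels of few counts. Oprd1, the delta opioid receptor, was at 11.4 and 15.4 CPM in HT and 26.8 and 19.0 CPM in TH (-0.76, SE 0.28).

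A few genes had TT on the side of TH, the group with which TT shares the first TTX. Slc2a2, a facilitative glucose transporter, was at 1.29 and 1.97 CPM in HT and 9.67 and 5.46 CPM in TH (log2 difference -2.17, SE 0.48), with 8.72 and 7.77 CPM in TT and 2.78 and 5.48 CPM in HH. Tmprss5, a transmembrane serine protease, was at 4.66 and 5.05 CPM in HT and 11.6 and 11.1 CPM in TH (-1.22, SE 0.34), with 8.47 and 13.9 CPM in TT and 4.01 and 7.04 CPM in HH. Arg2, the mitochondrial arginase, was at 9.05 and 10.4 CPM in HT and 18.5 and 19.0 CPM in TH (-0.95, SE 0.27), with 18.4 and 19.7 CPM in TT and 8.94 and 16.4 CPM in HH. In Tmprss5 and Arg2 the 4 libraries with the earlier TTX were the highest. Slc2a2 had its highest 3 values among them, and TH replicate 2 lay just below HH replicate 2.

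Cyp2b1 and Tdrd5 were low in TH against every other group. Tdrd5, a tudor-domain gene known from germ cells, was at 2.33 and 2.25 CPM in HT and 0.276 and 0.607 CPM in TH (log2 difference 2.22, SE 0.62), with 3.39 CPM in both HH libraries and 3.74 and 3.39 CPM in TT. Cyp2b1, a cytochrome P450, was at 7.76 and 8.42 CPM in HT and 3.87 and 1.82 CPM in TH (1.56, SE 0.39), with HH between 4.63 and 7.04 CPM. Cyp2b1 has near-identical relatives whose reads the counting may have split.

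Receptors for noradrenaline and serotonin pointed both ways. Of 13 tested, 2 had an unadjusted p under 0.05 with HT higher (1.56% of all tested genes) and 1, Adra1a, with HT lower (1.45% of all). The median was 0.090, and it ran from 0.0044 without HT replicate 1 to 0.23 without HT replicate 2. Adrb1, the beta-1 adrenergic receptor, was at 27.9 and 31.2 CPM in HT and 18.2 and 8.70 CPM in TH (log2 difference 1.17, SE 0.44). Its TH values did not reach those of HT but were over 2-fold apart. Htr5b, a serotonin receptor, was at 9.05 and 10.1 CPM in HT and 4.97 and 5.87 CPM in TH (0.80, SE 0.29).

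TT against HH uses none of the 4 libraries of HT against TH, so the same genes could be read in other libraries; this reading was chosen after values were seen. Over all tested genes 50.1% had the same direction in both comparisons. Of the 177 genes higher in HT at an unadjusted p under 0.05, 129 (72.9%) were also higher in TT than in HH, where 50.7% of all genes higher in HT were. Of the 165 genes lower in HT, 86 (52.1%) were lower in TT, where 49.5% of all genes lower in HT were. Without HH replicate 1 the shares were 70.6% beside 53.9% for the higher genes and 66.7% beside 55.4% for the lower genes. These came from the mean log2 CPM of TT minus that of HH replicate 2, and not from the edgeR fit. The share of the lower genes thus moved when that 1 library was left out and the measure changed with it. HH replicate 2 also had 215 counts of the Y-linked Eif2s3y, against 3 and 0 in TT. The part of that difference in these shares was not tested. Each of the 13 dividing-cell genes and both cholesterol genes among the 342 lay on the same side in both comparisons. TT lay above HH in 32 of all 33 tested dividing-cell genes and in 1 of all 26 tested cholesterol genes. The picked members therefore add nothing to what their whole lists show in TT against HH. For Smc4 the log2 difference of TT and HH was 0.69 (SE 0.16), for Kif20b 0.45 (SE 0.21), for Adra1a -0.63 (SE 0.19) and for Slc2a2, on the opposite side, 0.96 (SE 0.39).

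**Figure D4:**
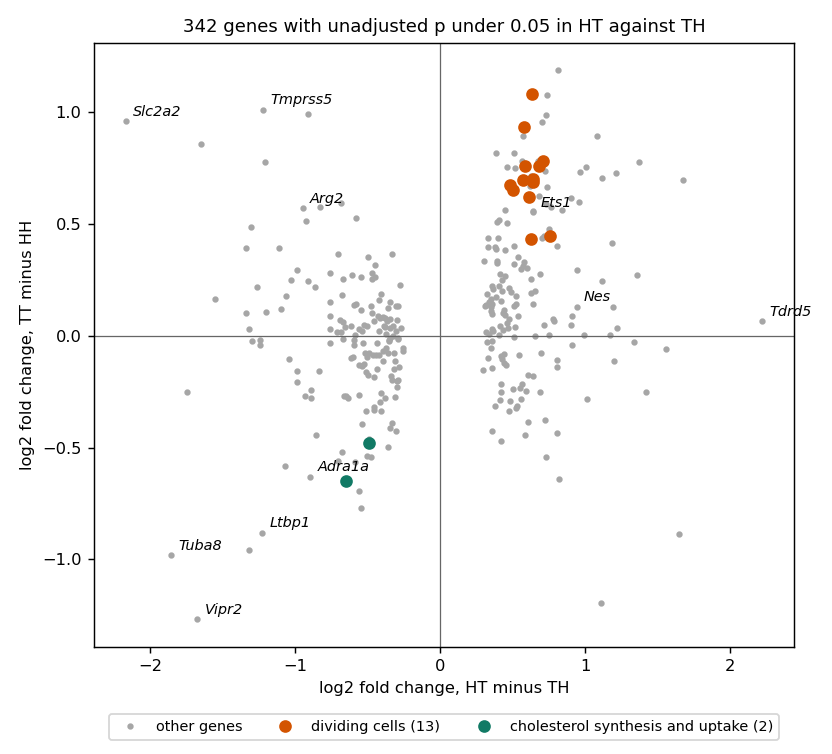
Log2 difference of HT minus TH (x axis) against that of TT minus HH (y axis), which share no library, for the 342 genes with an unadjusted p under 0.05 in HT against TH; orange points are dividing-cell genes and green points cholesterol genes. All 13 orange points lie in the upper right and both green points in the lower left, while Slc2a2, Tmprss5 and Arg2 lie in the upper left.

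Genes that neurons turn on when they fire overlapped between HT and TH in most cases. Of 20 rapid activity-response genes 14 lay above 0 with a median of 0.14, none with an unadjusted p under 0.05. Of 29 later genes 22 lay above 0 with a median of 0.19, also none. HT stood apart without overlap in 3 rapid genes as the higher group and in 1 as the lower, or 20% of the list beside 30.6% of all genes. Against HH the rapid median was -0.61 in HT and -0.60 in TH, and the later median -0.51 and -0.60. The rapid list level was 1.05 and -0.14 in HH, 0.17 and -0.21 in HT and -0.028 and -0.31 in TH. The later list level was 0.84 and 0.050 in HH, 0.22 and -0.17 in HT and 0.014 and -0.34 in TH. In both lists HH replicate 2 thus lay within the range of the HT and TH libraries. HH replicate 1 was the highest library in 15 of the 20 rapid and 22 of the 29 later genes.

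Individual values show where the medians come from. Fos was at 11.6 and 6.46 CPM in HT and 9.67 and 6.88 CPM in TH (log2 difference 0.16, SE 0.86). Npas4, a transcription factor switched on by calcium entry, was at 9.57 and 1.97 CPM in HT and 3.87 and 3.24 CPM in TH (0.73, SE 1.54). Arc, which regulates receptor traffic at synapses, was at 9.31 and 6.46 CPM in HT and 8.56 and 3.64 CPM in TH (0.43, SE 0.94). The groups overlapped in each. Bdnf, a secreted neurotrophin, was at 36.0 and 12.1 CPM in HT and 19.3 and 10.9 CPM in TH (0.71, SE 1.04). Homer1, a synaptic scaffold gene, was at 407 and 323 CPM in HT and 276 and 350 CPM in TH (0.22, SE 0.41), and Nptx2, a secreted pentraxin, at 19.4 and 13.8 CPM against 18.5 and 13.0 CPM (0.098, SE 0.27). Egr4, a zinc-finger factor and the rapid gene of smallest p, was at 5.95 and 5.33 CPM in HT and 4.14 and 1.62 CPM in TH (1.04, SE 0.69). HT replicate 1 was the higher HT library in 15 of the 20 rapid and 24 of the 29 later genes. Without TH replicate 2 the rapid median was -0.039 and the later median 0.012. Without HT replicate 1 the rapid median was -0.20, the later median 0.0067, and Fos, Npas4, Bdnf and Nptx2 changed sign, to -0.34, -0.83, -0.30 and -0.18.

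Feedback genes of the ERK kinase pathway had a higher median that rested on the same library. Of 13 tested 11 lay above 0, with a median of 0.44 and none at an unadjusted p under 0.05. HT lay above TH without overlap in 5 and below in 0, together 38.5% beside 30.6% of all tested genes. Spred2, an inhibitor of the pathway, was at 320 and 161 CPM in HT and 141 and 159 CPM in TH (log2 difference 0.68, SE 0.50). Etv5, a transcription factor induced by ERK, was at 192 and 110 CPM in HT and 93.9 and 94.9 CPM in TH (0.68, SE 0.48). Spry2, another inhibitor, was at 37.8 and 29.2 CPM in HT and 25.1 and 24.1 CPM in TH (0.45, SE 0.23). HT replicate 1 was the higher HT library in 12 of the 13, and without it the median was -0.014. Mapk4, an atypical kinase on the later list, showed the same spread, at 55.4 and 35.7 CPM in HT and 33.1 and 34.4 CPM in TH (0.43, SE 0.24).

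Genes of synapses and of homeostatic scaling lay close to the background. Of 24 tested scaling genes 14 were above 0, with a median of 0.040 (-0.0086 without HT replicate 1), and 2 stood apart without overlap (8.33% beside 30.6%). Gria1, an AMPA receptor subunit, was at 1535 and 1891 CPM in HT and 1731 and 2134 CPM in TH (log2 difference -0.17, SE 0.18). Gria2, the subunit that keeps calcium out, was at 791 and 659 CPM in HT and 633 and 815 CPM in TH (0.00094, SE 0.19), a value so near 0 that its sign turned under 9 of the alternatives. In both genes the groups overlapped. The 18 AMPA receptor genes and partners had a median of 0.036, between 0.00051 and 0.066 with 1 library left out, and Cacng4, an auxiliary subunit, had the smallest p among them, at 193 and 181 CPM in HT and 150 and 165 CPM in TH (0.25, SE 0.12).

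Transmitter release, the postsynaptic density and ion channels had small medians as well. The 31 presynaptic genes had a median of 0.057, and Unc13a, which primes vesicles, was at 114 and 87.6 CPM in HT and 80.9 and 70.8 CPM in TH (log2 difference 0.41, SE 0.20). The 25 postsynaptic genes had a median of 0.049. An unadjusted p under 0.05 was reached by 1 of them with HT lower, beside 1.45% of all tested genes. It was Sipa1l1, a spine-associated regulator of Rap, at 350 and 348 CPM in HT and 470 and 395 CPM in TH (-0.31, SE 0.13). Medians were 0.065 over 38 potassium and HCN channel genes, 0.084 over 12 sodium channel genes and -0.082 over 15 calcium channel genes, none with an unadjusted p under 0.05. The 19 genes of inhibitory synapses had a median of 0.092, and the 19 of NMDA, kainate and metabotropic receptors -0.038. HT and TH did not overlap in 50% of the sodium channel, 42.1% of the inhibitory synapse and 40% of the calcium channel genes, beside 30.6% of all tested genes. That share was 16.1% for presynaptic, 16% for postsynaptic, 18.4% for potassium and HCN channel and 10.5% for NMDA, kainate and metabotropic receptor genes. Many of these small medians turned with 1 library. The calcium channel median was 0.039 without HT replicate 2 and 0.066 without TH replicate 2, and that of NMDA, kainate and metabotropic receptors was 0.0022 without TH replicate 2. Without HT replicate 1 the medians were -0.089 for presynaptic, -0.068 for postsynaptic, -0.015 for potassium and HCN channel, 0.020 for sodium channel and -0.063 for inhibitory synapse genes. Class 3 semaphorins and their receptors, guidance cues also studied in scaling, had a median of 0.18 with 9 of 11 above 0 (50.9% of all tested genes) and 5 higher in HT without overlap (15.5% of all). Their median was 0.088 without HT replicate 2.

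Medians of the neuron class markers changed sign with the library left out. The 13 markers of excitatory neurons had a median of 0.050. The 1 member with an unadjusted p under 0.05 was Fezf2, with HT lower, beside 1.45% of all tested genes. The excitatory median was -0.16 without HT replicate 2, -0.034 without TH replicate 2 and 0.15 without TH replicate 1. The 17 markers of inhibitory neurons had a median of -0.11 with 12 below 0, and 0.024 without TH replicate 1. Gad1 and Gad2, which make GABA, were at 253 and 209 CPM and at 257 and 243 CPM in HT, and at 335 and 249 CPM and at 298 and 305 CPM in TH (log2 differences -0.33, SE 0.20, and -0.27, SE 0.17). Among the 16 astrocyte markers 1 gene on each side had an unadjusted p under 0.05, beside 1.56% (HT higher) and 1.45% (HT lower) of all tested genes. Slc1a3, a glutamate transporter, was at 600 and 501 CPM in HT and 419 and 400 CPM in TH (0.43, SE 0.19). Aldoc, a glycolytic aldolase, was at 56.1 and 62.0 CPM in HT and 98.3 and 70.0 CPM in TH (-0.50, SE 0.17).

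**Figure D5:**
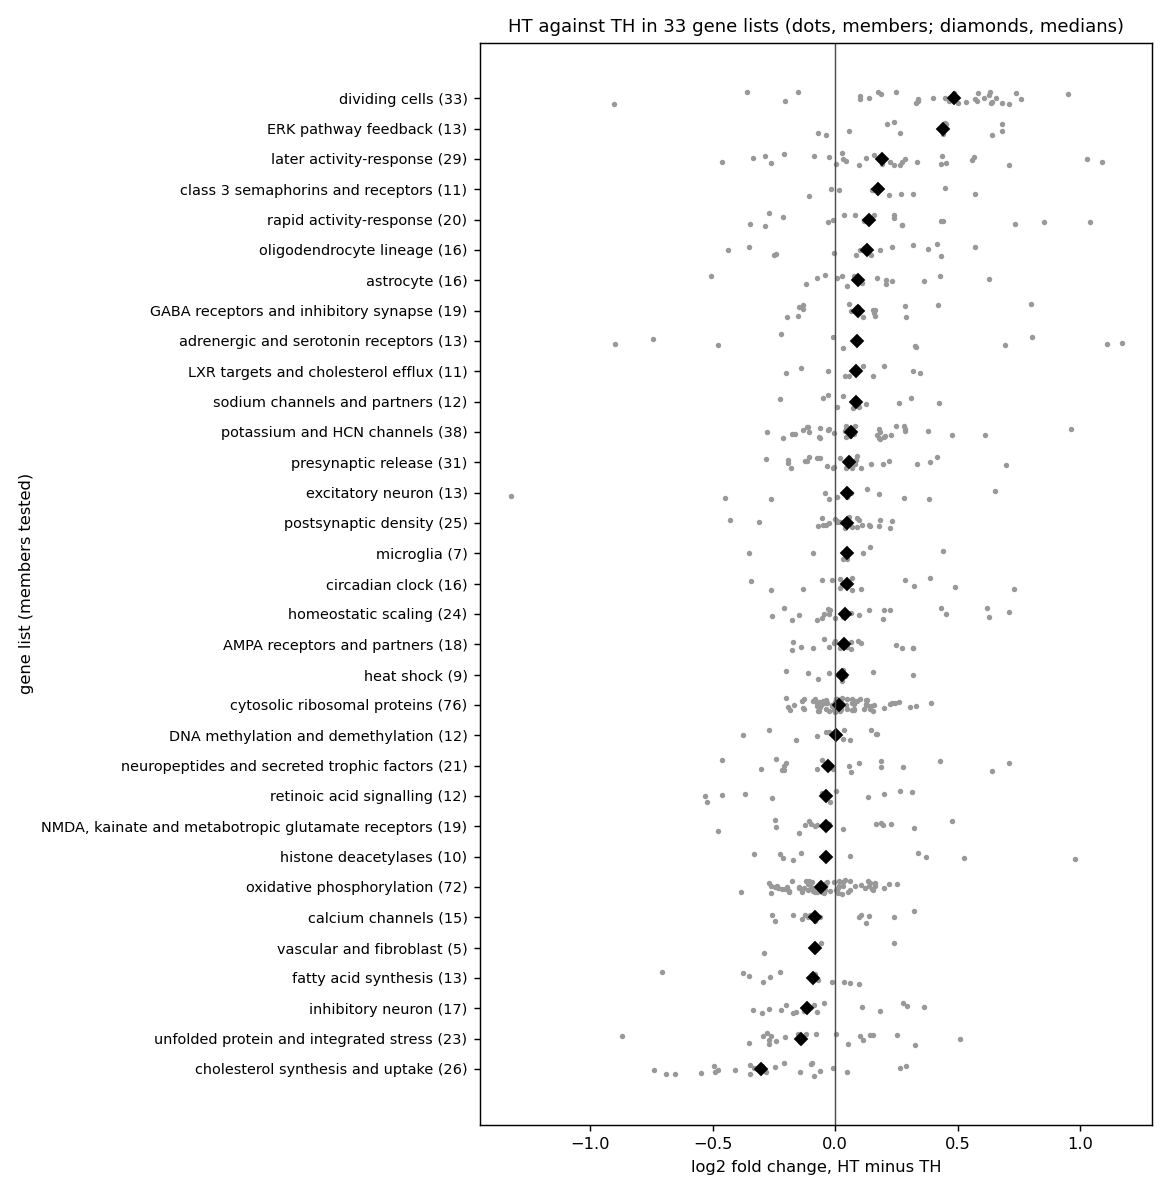
Log2 difference HT minus TH (x axis) of the tested members of 33 gene lists (dots) with the list medians (diamonds), ordered by median. Dividing-cell genes have the highest median at 0.48, ERK feedback genes the next at 0.44 and cholesterol genes the lowest at -0.30. The dividing-cell and ERK medians were 0.66 and -0.014 without HT replicate 1 and 0.30 and 0.76 without HT replicate 2, which turns their order.

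Housekeeping groups had medians near 0. The 76 cytosolic ribosomal protein genes, whose many processed copies make read assignment uncertain, had a median of 0.017 with 2 that did not overlap (2.63% beside 30.6% of all tested genes). The 72 oxidative phosphorylation genes had a median of -0.058 with 47 below 0. Leaving out 1 of the 4 libraries turned the sign of both medians, with ribosomal values of -0.15 to 0.18 and oxidative phosphorylation values of -0.20 to 0.096. Within TH, replicate 1 lay above replicate 2 in 74 of the 76 ribosomal and 67 of the 72 oxidative phosphorylation genes, so the spread between the TH replicates exceeded the difference between the groups. Stress genes, 23 of the unfolded protein response and 9 of heat shock, had medians of -0.14 and 0.027 with none at an unadjusted p under 0.05; without TH replicate 1 they were 0.093 and 0.14, and without TH replicate 2 -0.31 and -0.13.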

How the data were processed

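BrU-seq read counts per gene, whole numbers and not normalized, were deposited by the authors as 1 table of 16871 gene symbols. The submitters' processing notes name rat build rn6 and the tools featureCounts, TopHat2, Bowtie2 and FastQC. Versions, annotation, strand setting and the treatment of introns were not given in the sources used here. Because nascent RNA is rich in introns, leaving them out would lower the counts of long genes, and without strand the reads of overlapping or antisense genes would mix. Column numbers were matched to the number in each sample's description for 8 columns, while 2 others had no matching sample and were left out. The labels give no batch or date.

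Counts were fitted in R 4.3.3 with edgeR 4.0.16 (expression filter, TMM scaling, 1 model of 4 group means with 4 residual degrees of freedom, robust quasi-likelihood test, Benjamini-Hochberg adjustment at 0.05 over 11372 genes). The SE was worked back from the F statistic and rests on the spread within all 4 groups. Replicates differed by more than sampling noise (chi-square per degree of freedom 5.03 in HT and 6.74 in TH), so none was counted as a repeat. Alternatives were DESeq2 1.42.0, limma-voom 3.58.1, other scalings and filters, HT and TH alone, a replicate block and libraries left out. The fit was tested on simulated counts (10 runs of 200 changed genes; 8.72% of calls were false). The 33 gene lists and the comparison itself were chosen with earlier results of these data known. Named genes are the 10 of smallest p in each direction, the 6 largest differences in each direction with unadjusted p under 0.05 and a mean of at least 10 CPM, the 4 (or fewer) members of smallest p in each list, and 8 fixed genes: Gria1, Gria2, Nptx2, Homer1, Bdnf, Arc, Npas4 and Fos. Some genes that the rule or the lists name are not reported here, though list counts and medians include them. Gene lists not described in the text are circadian clock, DNA methylation, histone deacetylases, retinoic acid and neuropeptide genes, with medians of 0.048, 0.0041, -0.039, -0.038 and -0.028 (the last 0.29 without TH replicate 1). Promoters are RefSeq's on GRCr8, the first listed start per gene, and list members without an entry were left out. Figures used matplotlib 3.10.9 in Python 3.11.15.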

Additional observations from a re-analysis of the deposited data

How the results depend on the processing

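The count of called genes, 0, became 1 without TH replicate 2 (Pole2, see its values under the other observations) and 1 without HH replicate 1 and HT replicate 1 together (Nes), and was 0 under the other alternatives. The libraries left out singly were the 4 of HT and TH and HH replicate 1, which gave 0 to 1; HH replicate 2 and the TT libraries were always kept. Pairing by replicate number was not established: the labels give no shared source, and deviations of same-numbered HT and TH libraries had a correlation of 0.022 across genes, over 2 pairs. The replicate block gave 0 called genes and 382 at an unadjusted p under 0.05. The count at an unadjusted p under 0.05 was 120 in DESeq2, 224 without HT replicate 1 and 545 without HH replicate 1, beside 342. Leaving out 1 of those 5 libraries at a time gave medians of 0.30 to 0.66 for dividing cells, -0.49 to -0.17 for cholesterol, -0.20 to 0.29 for rapid, 0.0067 to 0.33 for later activity-response and -0.014 to 0.76 for ERK feedback genes. Without HH replicate 1 and HT replicate 1 together, chosen after seeing the data, they were 0.65, -0.49, -0.20, 0.0077 and -0.017. Of 948 recomputed gene values 927 kept their direction and side of the threshold and 20 changed sign. Without HT replicate 1, and without both libraries, Fos was -0.34 and -0.34, Npas4 -0.83 and -0.83, Bdnf -0.30 and -0.29, Nptx2 -0.18 and -0.18 and Gria2 -0.14 and -0.14. Without TH replicate 2, Fos was -0.084, Arc -0.11 and Nptx2 -0.15. Leaving out 1 of them gave ranges of -0.34 to 0.51 for Fos, -0.83 to 1.43 for Npas4, -0.11 to 1.11 for Arc, -0.30 to 1.28 for Bdnf, -0.18 to 0.36 for Nptx2 and -0.17 to 0.20 for Gria2. Gria2 was -0.000313 with DESeq2 size factors and in DESeq2, -0.020 with upper quartile scaling, -0.0011 with no low-count filter, -0.00506 with a stricter one, -0.011 with the replicate block and -0.17 without TH replicate 1. Of 462 list values 420 stayed within the spread between libraries. The cause of these changes was not tested. With 2 libraries a group, genes of few counts such as Tdrd5 and Ccnb2 rest on little depth.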

Other observations

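Pole2, a subunit of DNA polymerase epsilon named after its values were seen, was at 4.70 CPM in TH replicate 1 and at 978 CPM in TH replicate 2. HT replicates were at 1063 and 1271 CPM, HH replicates at 1248 and 1119 CPM and TT replicates at 766 and 982 CPM. All libraries but TH replicate 1 thus held it at a high level, and edgeR gave HT against TH an SE of 1.79 for it. Without TH replicate 2 its adjusted p was 5.11e-05 in edgeR's quasi-likelihood test with Benjamini-Hochberg adjustment, a call that rests on TH replicate 1 alone.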
